A study of Mus musculus with 9 samples.

Results

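Genes that specify the regions next to the developing cerebral cortex were followed in control, Sfpq+/- and Sfpq-/- cortex of mouse embryos. The set held 38 genes, chosen by name as regulators of the diencephalon, hypothalamus, midbrain and hindbrain, and some of them were chosen because they were higher in Sfpq-/- cortex. All 38 had probe sets annotated to them alone, and all 38 were among the 16854 genes with a measured level. A regional regulator of this kind is a transcription factor made by progenitors or young neurons of 1 territory of the neural tube, where it turns on that territory's genes and holds those of its neighbours off. The thalamus, prethalamus and pretectum (diencephalon), the hypothalamus and the midbrain lie behind and below the telencephalon, and the cortex is normally poor in most of these factors. Mab21l1 and Mab21l2, needed for eye development, are in the set although they have a nucleotidyltransferase fold and are not classical transcription factors.

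Whole-transcript exon arrays were hybridised with total RNA of cerebral cortex dissected from E13.5 embryos, with 1 array for each of 9 samples. The 3 groups of 3 were controls labelled wild type, Sfpq+/- and Sfpq-/-, where Sfpq encodes a nuclear RNA-binding protein that acts in transcription and RNA processing. The labels name no Cre line or promoter and no litter, and the extraction note names Sfpq+/- in the place where Sfpq-/- would stand. Nothing says whether samples came from separate litters, so a p-value reflects only how far these samples spread, which may be technical. Levels are means of log2 probe set signals, so a difference of 1 is a 2-fold change in signal, and the number of arrays limits the precision.

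The labels were checked first. The 12 of 23 Sfpq probe sets with a control mean above 10 had a mean level of 12.09 ± 0.02 (SD, n = 3) in controls. In Sfpq-/- cortex it was 10.13 ± 0.17 (SD, n = 3), 3.90-fold lower, and in Sfpq+/- it was 11.96 ± 0.11 (SD, n = 3). The gene level over all kept Sfpq probe sets was 10.14 ± 0.23 in controls, 10.25 ± 0.24 in Sfpq+/- and 8.98 ± 0.27 in Sfpq-/- cortex (SD, n = 3 each), so that the fold was 2.22 and Sfpq+/- was not below the controls. Cortical markers were bright on every array: the mean log2 level of 14 cortical genes ran from 10.25 to 10.26 in controls, from 10.30 to 10.41 in Sfpq+/- and from 10.07 to 10.14 in Sfpq-/- cortex. Xist, the RNA that silences an X chromosome, was high (at least 11.48) on 3 arrays, namely Sfpq-/- 1 and the first 2 controls, and at most 5.87 elsewhere, so embryo sex was not matched between groups. In dissected tissue, fewer cells of a type and less RNA per cell cannot be told apart.

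Promoters of 4 members are shown because these genes had some of the largest differences between Sfpq-/- and control probe sets. Each is 300 bases from RefSeq (GRCm38.p6), with 250 before and 50 after the annotated start, written in the direction of the gene. They lie at chr10:19356289-19356588 (plus strand) for Olig3, chr3:86548234-86548533 (minus) for Mab21l2, chr6:23248215-23248514 (minus) for Fezf1 and chr3:66981722-66982021 (minus) for Shox2. Capitals mark TATAAA, the letters of a TATA box, and CCAAT, each searched on both strands (ATTGG is CCAAT on the other strand).
Olig3: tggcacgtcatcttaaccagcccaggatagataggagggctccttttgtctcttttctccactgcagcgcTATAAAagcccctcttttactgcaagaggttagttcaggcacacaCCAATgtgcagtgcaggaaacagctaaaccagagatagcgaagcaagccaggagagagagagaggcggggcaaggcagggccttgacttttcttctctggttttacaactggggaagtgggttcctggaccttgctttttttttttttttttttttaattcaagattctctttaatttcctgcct
Mab21l2: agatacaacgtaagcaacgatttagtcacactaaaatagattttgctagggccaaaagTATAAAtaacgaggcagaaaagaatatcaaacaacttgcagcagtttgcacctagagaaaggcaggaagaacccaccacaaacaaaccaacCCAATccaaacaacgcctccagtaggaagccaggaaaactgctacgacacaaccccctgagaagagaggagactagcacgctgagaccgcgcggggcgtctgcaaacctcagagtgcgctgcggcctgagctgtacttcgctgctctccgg
Fezf1: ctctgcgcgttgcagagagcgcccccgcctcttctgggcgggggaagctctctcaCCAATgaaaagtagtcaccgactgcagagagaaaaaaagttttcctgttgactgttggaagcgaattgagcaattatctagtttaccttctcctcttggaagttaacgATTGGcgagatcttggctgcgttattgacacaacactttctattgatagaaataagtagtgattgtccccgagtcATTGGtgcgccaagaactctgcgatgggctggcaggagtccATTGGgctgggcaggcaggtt
Shox2: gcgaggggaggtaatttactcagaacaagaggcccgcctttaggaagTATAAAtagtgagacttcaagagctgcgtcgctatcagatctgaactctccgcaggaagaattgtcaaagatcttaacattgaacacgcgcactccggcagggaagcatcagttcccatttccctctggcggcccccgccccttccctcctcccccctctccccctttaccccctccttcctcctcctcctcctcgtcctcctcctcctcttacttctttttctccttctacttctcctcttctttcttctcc

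The promoters of Olig3 and Mab21l2 held both motifs, with TATAAA beginning 180 and 192 bases before the annotated start and CCAAT 135 and 101 bases before it. Shox2 held TATAAA alone, 203 bases before the start, and Fezf1 held CCAAT 4 times and no TATAAA. Of the 38 members 30 had a promoter in the table. TATAAA was present in 8 of these 30 (26.7%), against 14.2% of 27025 promoters, and CCAAT in 13 (43.3%) against 37.9%. Searched in the same way, CAGCTG, a form of the E-box to which bHLH factors bind, was in 4 (13.3%, against 16.1%) and TAATTA, a homeodomain core, in 2 (6.67%, against 5.31%). The members' promoters had a median of 16 CG dinucleotides, against 7 over all promoters, and a range of 2 to 42. The 27025 promoters were not limited to protein-coding genes, which number 21900. The part of gene class in these contrasts was not tested. No probe set position was used, so these letters describe the sequence only.

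The members were also short. By their RefSeq gene spans, 25 of 38 (65.8%) span under 10 kb, against 36.2% of 21900 protein-coding genes, and 1, Lmx1a, spans 100 kb or more (2.63%, against 11.1%). Next to each other on a chromosome, with no other protein-coding gene between them, lie Irx1 and Irx2, Irx3 and Irx5, Hmx2 and Hmx3, and Nkx2-2 and Nkx2-4.

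In Sfpq-/- against control cortex 10 of 38 members were past limma's threshold (adjusted p under 0.05 over all 16854 genes) and higher, and 0 were lower. Over all genes 5.98% were called higher and 6.12% lower. Because this contrast helped to choose the members, the count and the values that follow are a description, and no member is given a p for it. The median difference was 0.22 over the members and 0.03 over all genes. The arrays of the 2 groups did not overlap in 18 members that were higher (16.1% of all genes) and in 1, Lmx1a, that was lower (10.8% of all genes). The differences were unevenly placed: 5 members were higher by at least 1, and the 11 midbrain and hindbrain members lay between -0.18 and 0.33.

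**Figure D1:**
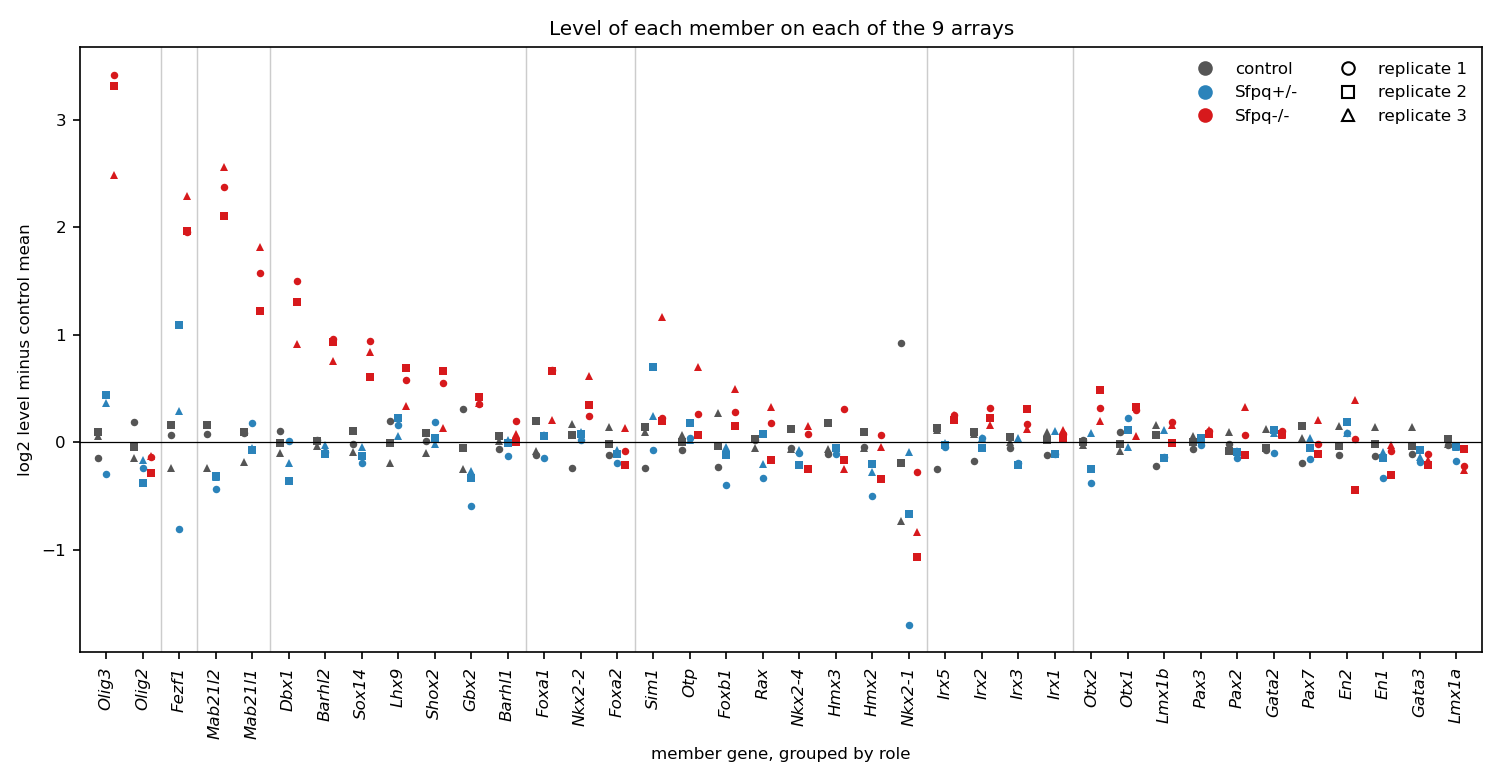
Log2 level of each of the 38 members on each array, minus the mean of the 3 controls (vertical axis), for members grouped by role along the horizontal axis. Each point is 1 array, coloured by genotype, with the marker shape giving the replicate number. Sfpq-/- arrays stand above all others for Olig3, Fezf1, Mab21l2, Mab21l1 and Dbx1, and the midbrain and hindbrain members at the right lie within 0.5 of 0.

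Olig3, a bHLH factor of dorsal hindbrain and spinal cord progenitors and of the thalamus, had the largest mean difference on kept probe sets, but part of it rests on dim signals. Its level was 6.08, 6.32 and 6.29 in the 3 controls, 5.93, 6.67 and 6.60 in Sfpq+/- and 9.66, 9.55 and 8.72 in Sfpq-/- cortex. The lowest Sfpq-/- array lay more than 2 units above the highest array of the other groups, and the group means differed by 3.08. All 5 of its probe sets were higher in Sfpq-/- without overlap, by 1.16 to 4.83. In controls only 2 of the 5 were above the limit for dim probe sets (5.64). Olig3 therefore passed the minimum of 3 probe sets only through the group where it was high. That limit is the median of all probe sets and not a measured background, so no control level of Olig3 is told from background. Over the 2 probe sets above the limit Olig3 was 7.28, 7.56 and 7.54 in controls and 9.27, 9.28 and 8.65 in Sfpq-/- cortex, a difference of 1.60 (3.03-fold). Its relative Olig2, which marks ventral telencephalic progenitors and the oligodendrocyte and motor neuron lineages, was 8.86, 8.62 and 8.52 in controls and 8.53, 8.38 and 8.54 in Sfpq-/- cortex. These ranges overlapped (difference -0.18), and none of the 8 Olig2 probe sets was higher in Sfpq-/-.

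Fezf1, a zinc finger factor of the early forebrain that patterns the prethalamus and hypothalamus, was 7.91, 8.01 and 7.61 in controls and 9.80, 9.81 and 10.13 in Sfpq-/- cortex. The difference was 2.07 (4.20-fold), the groups did not overlap, and 11 of 12 probe sets were higher without overlap. In Sfpq+/- the 3 arrays read 7.04, 8.94 and 8.13. The SD of 0.95 there was the largest of any member in any group, and 2 of the arrays were above all controls and 1 below.

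Both Mab21-like genes were higher. Mab21l2 was 6.83, 6.91 and 6.52 in controls, 6.32, 6.43 and 6.43 in Sfpq+/- and 9.13, 8.86 and 9.31 in Sfpq-/- cortex. All Sfpq-/- arrays were above and all Sfpq+/- arrays below the controls, with a difference of 2.35 (5.10-fold) for Sfpq-/-. Mab21l1 was 8.60, 8.61 and 8.33 in controls, 8.69, 8.44 and 8.46 in Sfpq+/- and 10.09, 9.73 and 10.33 in Sfpq-/- cortex, a difference of 1.54 (2.90-fold) without overlap. Its 5 probe sets were higher by 0.83 to 2.08, while those of Mab21l2 ran from -0.12 to 3.17.

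Of 7 factors of the diencephalon 5 were past the threshold and higher, where 5.98% of all genes were; some of them were chosen because they rose, so nothing is read from this count. Dbx1, a homeobox factor of the ventricular zone that is also found at the edges of the pallium, was 8.06, 7.96 and 7.86 in controls, 7.97, 7.60 and 7.77 in Sfpq+/- and 9.46, 9.27 and 8.88 in Sfpq-/- cortex (difference 1.24, 2.37-fold). Barhl2, a homeobox factor of the zona limitans and neighbouring diencephalon, was 9.30, 9.30 and 9.25 in controls, 9.19, 9.17 and 9.25 in Sfpq+/- and 10.24, 10.22 and 10.04 in Sfpq-/- cortex (difference 0.88). Sox14, which marks GABAergic neurons of the rostral thalamus and pretectum, was 7.33, 7.45 and 7.26 in controls, 7.15, 7.22 and 7.30 in Sfpq+/- and 8.29, 7.95 and 8.19 in Sfpq-/- cortex (difference 0.80). In these 3 genes every Sfpq-/- array was above every array of the other groups. Lhx9, a LIM homeobox factor of the thalamus and prethalamic eminence, was 9.37, 9.17 and 8.98 in controls, 9.34, 9.40 and 9.23 in Sfpq+/- and 9.75, 9.86 and 9.51 in Sfpq-/- cortex. This smaller difference of 0.54 was again without overlap with the controls, but it was no longer past the threshold without Sfpq-/- replicate 1. Some Lhx9 probe sets were bright in controls (highest control mean 11.79), so control cortex already gave signal for this gene. Gbx2, a homeobox factor of thalamic neurons and of the anterior hindbrain, read 8.48, 8.11 and 7.92 in controls, 7.58, 7.84 and 7.90 in Sfpq+/- and 8.52, 8.58 and 8.53 in Sfpq-/- cortex. It did not pass the threshold (difference 0.38), although all Sfpq-/- arrays were above and all Sfpq+/- arrays below the controls. Only 2 of its 9 probe sets were higher in Sfpq-/- by at least 0.5 (1.56 and 1.28), and the median over the 9 was 0.14. The same 2 lay furthest below the controls in Sfpq+/- (-1.38 and -0.85), so both shifts of the Gbx2 mean rest largely on them. Barhl1, known from cerebellar granule cells and the mammillary region, lay between 7.69 and 7.81 in controls and between 7.76 and 7.95 in Sfpq-/- cortex.

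Shox2, a homeobox factor of the caudal thalamus and pretectum, shows how much a gene mean can hide. As the mean of its 3 kept probe sets it was 8.50, 8.56 and 8.38 in controls and 9.03, 9.15 and 8.62 in Sfpq-/- cortex, a difference of 0.45. Its call depended on nearly every array: it was lost on leaving out any of them except Sfpq-/- 3. The other 8 probe sets were dim over the 9 arrays and did not enter that mean. Their average was 3.52, 4.16 and 3.81 in controls, 3.66, 3.91 and 3.82 in Sfpq+/- and 6.38, 6.38 and 4.78 in Sfpq-/- cortex. Of these 8, 7 were higher by at least 0.5, with a largest difference of 3.74, while the brightest of the 3 kept probe sets differed by 0.02. Over all 11 probe sets Shox2 differed by 1.59 and passed the threshold.

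Dim probe sets left out of the gene level were also higher in Foxa1, Irx1 and Irx2. Foxa1, a forkhead factor of the floor plate and of midbrain dopaminergic progenitors, was 6.96, 7.28 and 6.99 in controls, 6.93, 7.13 and 7.15 in Sfpq+/- and 7.75, 7.74 and 7.29 in Sfpq-/- cortex (difference 0.52). The 2 Foxa1 probe sets left out as dim were higher by a median of 3.33, and over all 13 the difference was 0.95. Its call on kept probe sets ended without control replicates 1 or 3 and without Sfpq-/- replicates 1 or 2. Irx1, Irx2, Irx3 and Irx5, homeobox genes of the neural tube behind the zona limitans, differed by 0.08 to 0.24 on kept probe sets, none past the threshold. Over all of its 11 probe sets Irx2 was 6.55, 6.77 and 6.52 in controls and 7.23, 7.32 and 6.96 in Sfpq-/- cortex, without overlap and past the threshold (difference 0.56). With all probe sets 11 of 38 members were called higher and 0 lower, where 3.98% of 20188 genes were called higher and 4.38% lower.

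**Figure D2:**
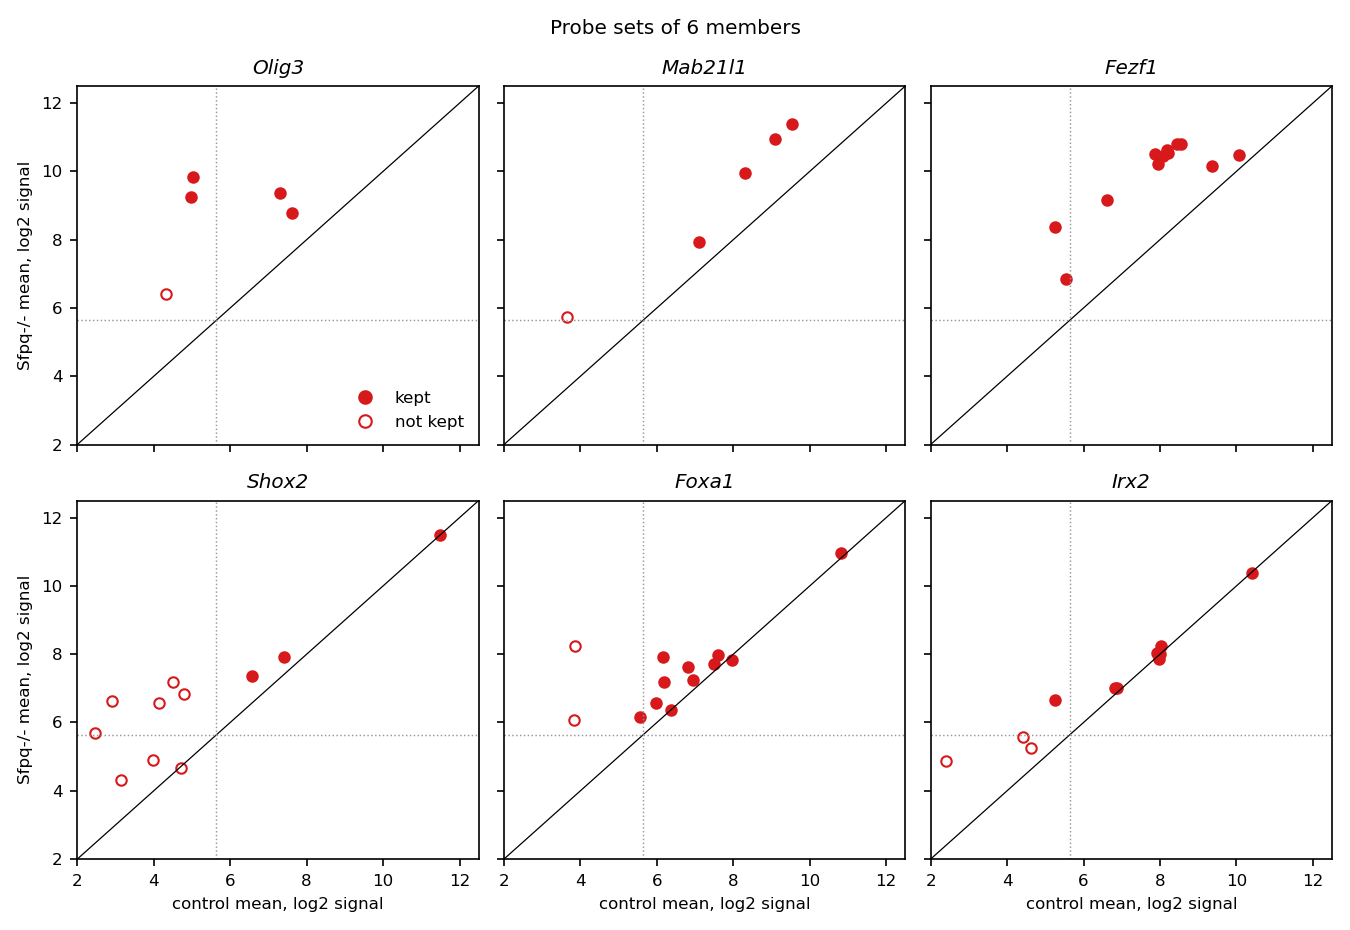
Mean log2 signal of each probe set in the 3 Sfpq-/- arrays (vertical axis) against the 3 controls (horizontal axis) for 6 members. Filled circles entered the gene level, open circles were too dim over the 9 arrays, the solid line marks equal signal and the dotted lines the limit of 5.64. For Shox2 the 8 open circles hold most of the difference.

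Hypothalamic members gave no call in Sfpq-/- cortex, with differences from -0.73 to 0.53 over 8 genes. Sim1, a bHLH-PAS factor of neuroendocrine hypothalamic neurons, was 5.97, 6.35 and 6.30 in controls, 6.14, 6.91 and 6.45 in Sfpq+/- and 6.43, 6.40 and 7.37 in Sfpq-/- cortex. Only Sfpq-/- 3 was far from the rest, and its level set the difference of 0.53. Otp, a homeobox factor of the same neurons, was 8.41, 8.49 and 8.55 in controls and 8.75, 8.55 and 9.18 in Sfpq-/- cortex, again with Sfpq-/- 3 on top. Foxb1, a forkhead factor of the mammillary region, differed by 0.31, Rax, needed for the optic vesicle and hypothalamus, by 0.12, and Nkx2-4, Hmx2 and Hmx3 by -0.01, -0.11 and -0.04.

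Nkx2-1, which specifies both the hypothalamus and the medial ganglionic eminence, varied widely between arrays. It was 8.50, 7.38 and 6.84 in controls, 5.87, 6.91 and 7.48 in Sfpq+/- and 7.29, 6.51 and 6.74 in Sfpq-/- cortex. The groups overlapped, and control 1 was more than 1 unit above every other array. Lhx8, a target of Nkx2-1 in the ganglionic eminence, was also highest on control 1 (9.45, against 8.01 and 7.82 on the other controls), and so was Lhx6, of migrating interneurons (9.14, against 8.26 and 8.49). Lhx8 was chosen for this after its values were seen. The mean of 14 ganglionic eminence genes ran from 8.35 to 9.09 in controls and from 8.61 to 8.73 in Sfpq-/- cortex. The part that ventral telencephalic tissue had in the Nkx2-1 values was not tested. Of the ventral midline factors, Nkx2-2 was 6.39, 6.69 and 6.79 in controls and 6.86, 6.97 and 7.24 in Sfpq-/- cortex, without overlap but not past the threshold (difference 0.40). Foxa2, the floor plate partner of Foxa1, differed by -0.05.

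None of the 11 midbrain and hindbrain members passed the threshold. Otx2, a head patterning factor that persists in the choroid plexus and midbrain, was 9.91, 9.90 and 9.87 in controls and 10.21, 10.38 and 10.09 in Sfpq-/- cortex, a difference of 0.33 without overlap. Otx1, which the cortex itself makes, differed by 0.23. The midbrain and hindbrain homeobox genes En1 and En2 differed by -0.14 and -0.01, and the paired box genes Pax2, Pax3 and Pax7 by 0.10, 0.10 and 0.03. Gata2 and Gata3, zinc finger factors of GABAergic neurons in the midbrain and brainstem, differed by 0.08 and -0.16. Lmx1a, a LIM homeobox factor of the roof plate, cortical hem and midbrain floor, was 8.10, 8.16 and 8.11 in controls and 7.90, 8.06 and 7.87 in Sfpq-/- cortex (difference -0.18), and Lmx1b differed by 0.12.

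Members that are neighbours on a chromosome can be set side by side. Irx3 and Irx5 differed from control by 0.20 and 0.24, Irx1 and Irx2 by 0.08 and 0.24, and Hmx2 and Hmx3 by -0.11 and -0.04. Nkx2-2 and Nkx2-4 stood at 0.40 and -0.01. No test of these pairs was run.

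The 3 Sfpq-/- arrays differed in which members were highest. In the 19 members with a difference of at least 0.25 over all their probe sets, Sfpq-/- 3 was the lowest of the 3 for 9 and the highest for 7. Among all 2053 genes past the same limit it was the lowest in 63.7% and the highest in 17.2%. The 9 were Shox2, Olig3, Foxa1, Dbx1, Lhx9, Irx2, Irx1, Otx2 and Barhl2. The 7 were Sim1, Otp, Mab21l2, Fezf1, Foxb1, Mab21l1 and Nkx2-2. Shox2 over all probe sets read 7.10, 7.13 and 5.83 on Sfpq-/- 1, 2 and 3, so that Sfpq-/- 3 lay 1.29 below the mean of the other two. Sim1 over all probe sets read 6.10, 6.11 and 7.27, so that Sfpq-/- 3 lay 1.17 above it. On kept probe sets Sfpq-/- 3 was at least 0.5 from that mean in 4 members (Olig3 lower, and Otp, En2 and Sim1 higher), against 3.79% of all genes. Over all genes, the deviations of Sfpq-/- 3 from its group mean correlated at 0.57 with those of control 3 and at 0.30 with those of Sfpq+/- 3. The split of the Sfpq-/- arrays was seen after the values were known and was not tested.

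**Figure D3:**
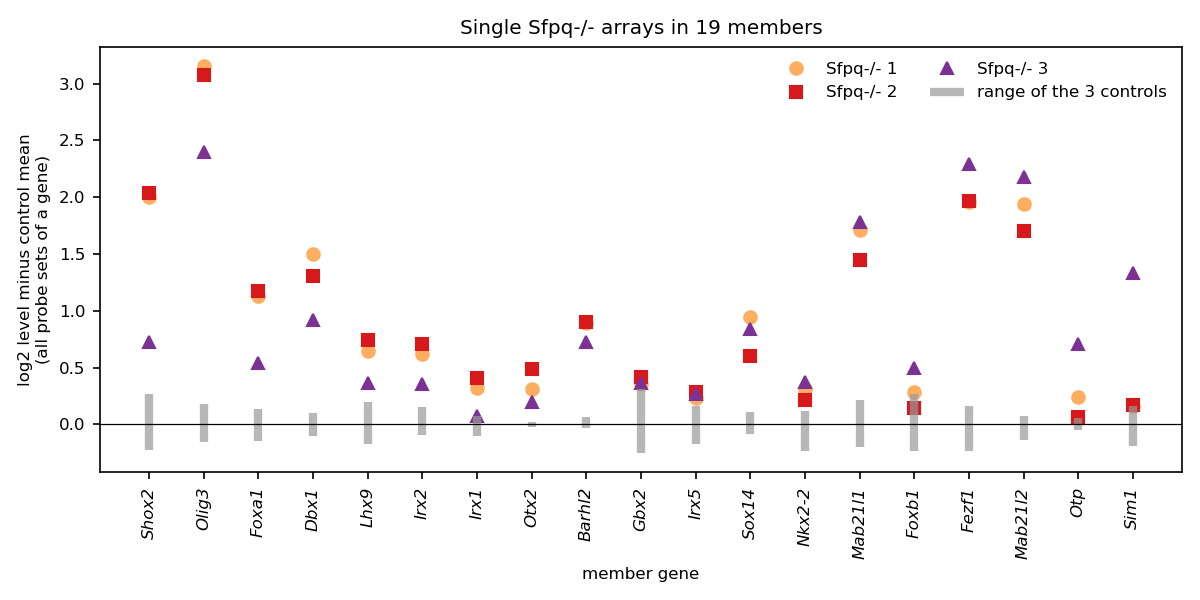
Log2 level over all probe sets minus the control mean (vertical axis) on each Sfpq-/- array, for the 19 members with a group difference of at least 0.25. Members are ordered along the horizontal axis by Sfpq-/- 3 minus the mean of Sfpq-/- 1 and 2, and grey bars span the 3 controls. Sfpq-/- 3 is below the other two at the left (Shox2, Olig3) and above them at the right (Otp, Sim1).

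Sfpq+/- against control cortex was the comparison whose arrays had not helped to choose the members, although it shares the controls. No member passed limma's threshold (smallest adjusted p = 0.886), and 0% of all genes did in either direction. At an unadjusted p under 0.05 there were 0 higher and 4 lower members, Olig2, Mab21l2, Gbx2 and Hmx2, against 2.22% and 2.02% of all genes. The 95% intervals of the differences were -0.64 to -0.08 for Mab21l2, -0.69 to -0.10 for Gbx2, -0.48 to -0.04 for Olig2 and -0.58 to -0.07 for Hmx2. For Olig3 the interval ran from -0.37 to 0.70 and for Dbx1 from -0.49 to 0.13. For Fezf1 it was wider, from -0.59 to 0.98, and for Nkx2-1 widest, from -1.79 to 0.16.

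Of the 38 members 25 were below the controls in Sfpq+/-, with a median difference of -0.07 against 0.03 over all genes. The Sfpq+/- arrays lay below all controls without overlap in 7 members (Mab21l2, Gbx2, Olig2, Hmx2, Nkx2-4, Pax2 and Lmx1a), against 3.99% of all genes, and above them in 0, against 8.52%. The medians of the other gene lists in Sfpq+/- went both ways. They were -0.20 for anterior Hox genes, -0.13 for other midbrain and hindbrain genes, -0.11 for both the hypothalamic and the ganglionic eminence genes, -0.10 for erythroid and -0.08 for eye genes. For other diencephalon genes the median was -0.02, for dorsal midline genes 0.01, for meningeal genes 0.03 and for cortical genes 0.12. No gene in these lists passed the threshold in Sfpq+/-. All 3 Sfpq+/- arrays were low in Xist, as was 1 of 3 controls, and the part of embryo sex in this shift was not tested.

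**Figure D4:**
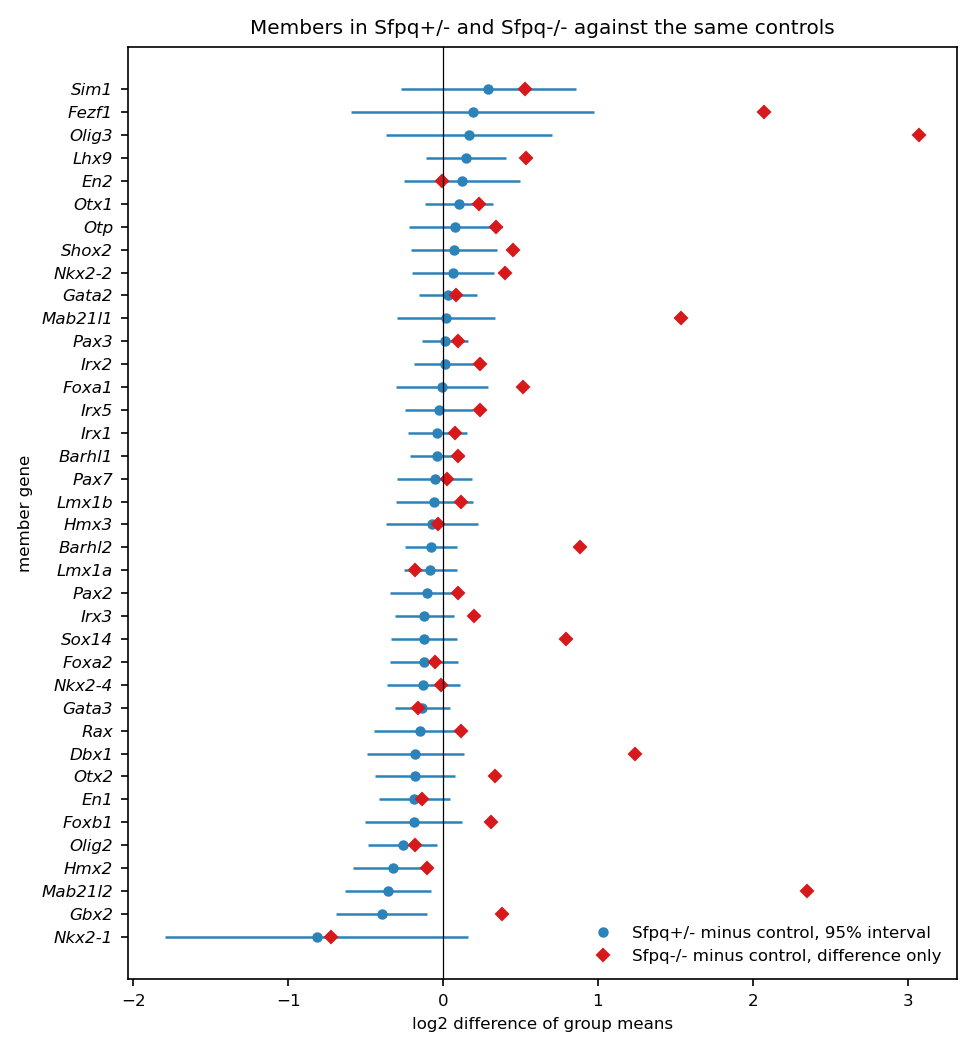
Difference of group means from the 3 controls on the log2 scale (horizontal axis) for the 38 members, ordered by the Sfpq+/- difference. Blue points are Sfpq+/- with 95% intervals from limma, and red diamonds are Sfpq-/- without an interval. The 2 sets share their controls, and the diamonds of Olig3, Mab21l2 and Fezf1 lie at 2 or more.

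Set against Sfpq+/- in place of the controls, Sfpq-/- cortex gave 12 members past limma's threshold and higher and 0 lower, where 4.58% of all genes were higher and 7.25% lower. This comparison shares the Sfpq-/- arrays that helped to choose the members and is a description only. Mab21l2 was higher by 2.71, Olig3 by 2.91 and Dbx1 by 1.42. Gbx2 (0.78), Otx2 (0.51), Foxb1 (0.50) and Irx3 (0.32) were past the threshold here and not against the controls, and Lhx9 (0.39) and Shox2 (0.38) the reverse.

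Genes of the same regions that are not in the set were measured beside it, from lists written with earlier results of these data known. For the counts in these and the following lists, 5.98% of all genes were called higher and 6.12% lower. Because earlier results were known, the counts, adjusted p and list means are a description, and nothing about a region is read from them. Of 16 measured diencephalon genes 6 rose in Sfpq-/- against control cortex and 1 fell, with a median of 0.16. They were Wnt3, a Wnt signal of the caudal diencephalon (0.97, limma adjusted p = 7.63e-05), the homeobox gene Prox1 (0.82, limma adjusted p = 7.63e-05), the thalamic Wnt effector Tcf7l2 (0.81, limma adjusted p = 0.000183) and the LIM homeobox gene Lhx5 (1.02, limma adjusted p = 0.000251). Lhx1 (0.48, limma adjusted p = 0.0121) and Lef1 (0.29, limma adjusted p = 0.0467) rose as well, and the cadherin gene Cdh6 fell (-0.71, limma adjusted p = 0.000801). The genes of this list without a call went both ways, from -0.31 to 0.18. Control means were 9.11 for Lef1, 8.50 for Tcf7l2, 8.36 for Prox1, 7.30 for Lhx5, 7.08 for Lhx1 and 6.56 for Wnt3. Anterior Hox genes, which are off in front of the hindbrain, read up to 8.77 in controls. A control mean up to that level therefore does not tell whether cortex makes a gene. Tcf7l2 read 8.53, 8.52 and 8.44 in controls and 9.40, 9.42 and 9.10 in Sfpq-/- cortex, so that every Sfpq-/- array was above every control. When each control or Sfpq-/- array was left out in turn, the call of Lef1 was lost 5 of 6 times (not without Sfpq-/- 3) and that of Lhx1 without Sfpq-/- 1.

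Of 15 other hypothalamic and preoptic genes, Trh, the thyrotropin-releasing hormone gene, rose (0.59, limma adjusted p = 0.0228) and Pou3f2, which the cortex also expresses, fell (-0.51, limma adjusted p = 0.00413). The call of Trh was lost without control 1 or 2 and without Sfpq-/- 1 or 3. None of 16 other midbrain, isthmus and hindbrain genes passed limma's threshold, and their differences ran from -0.15 to 0.19. The smallest adjusted p there were those of Fgf17 (0.19, limma adjusted p = 0.297), Fgf8 (0.16, limma adjusted p = 0.359), Pax5 (-0.14, limma adjusted p = 0.446) and Tph2 (-0.15, limma adjusted p = 0.511). None of 10 anterior Hox genes, which are off in front of the hindbrain, passed either (-0.21 to 0.20).

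Cortical genes moved the other way in part. Of 14 measured, 5 fell and 0 rose in Sfpq-/- cortex, with a median of -0.13: the proneural gene Neurog2 (-0.92, limma adjusted p = 0.00152), Fezf2, of subcerebral projection neurons (-0.49, limma adjusted p = 0.000626), Neurod6 (-0.41, limma adjusted p = 0.00848), the cortical selector gene Lhx2 (-0.34, limma adjusted p = 0.007) and Eomes (-0.23, limma adjusted p = 0.0489). Fezf2 thus fell where its paralog Fezf1 was higher. The call of Eomes was lost without any 1 of the controls and without Sfpq-/- 1 or 2. Emx1, Emx2 and Tbr1 did not pass.

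Lists for tissue that could adjoin the dissected cortex gave few calls, where 5.98% of all genes were called higher and 6.12% lower. Gad1 (0.98, limma adjusted p = 0.0102) and Ebf1 (0.62, limma adjusted p = 0.00774) rose among 14 ganglionic eminence genes, and Rspo3 (0.32, limma adjusted p = 0.0307) among 15 dorsal midline and choroid plexus genes, with a call that was lost without any 1 of these arrays other than Sfpq-/- 3. Of 7 optic vesicle and eye genes 1 fell, Dct, which dorsal telencephalic progenitors also make (-1.41, limma adjusted p = 8.21e-06). Prrx1 fell among 12 meningeal and mesenchymal genes (-0.50, limma adjusted p = 0.00563), and none of 4 erythroid genes passed (-0.39 to 0.02). The mean log2 level of the 16 diencephalon genes ran from 8.13 to 8.26 in controls and from 8.41 to 8.46 in Sfpq-/- cortex, and that of the choroid plexus list from 8.74 to 8.94 and from 8.84 to 8.94. The extent of diencephalic tissue in each dissection was not tested.

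**Figure D5:**
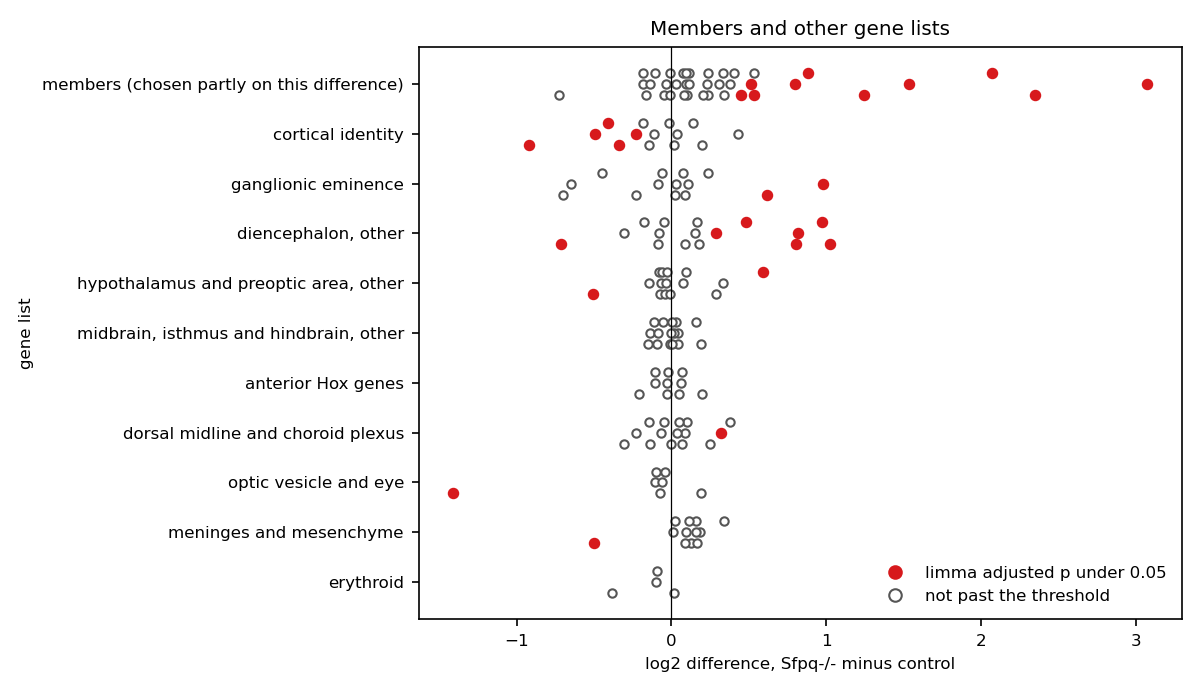
Log2 difference of each measured gene, Sfpq-/- minus control (horizontal axis), for the 38 members and 10 other gene lists. Filled points passed limma's threshold. In the row of other diencephalon genes 6 filled points lie above 0, and the rows of midbrain and hindbrain genes and of Hox genes have none.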

How the data were processed

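Each array's deposited table holds 1256831 probe set signals on the log2 scale. The submitters' processing notes name Affymetrix Expression Console 1.2.0.20 as the authors' software. The background correction, normalization and genome build were not given in the sources used here. Array medians lay between 5.65 and 5.70, and nothing was normalized further. GEO's platform annotation gave the gene names: 318760 (25.4%) had 1 symbol, 6684 had several and were not used, and 931387 had none there. Old symbols were updated through RefSeq synonyms.

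Probe sets with a mean over the 9 arrays above the median of all (5.64) were kept, and a gene's level was the mean of at least 3 kept probe sets. Of 376 member probe sets 313 were kept, 14 of them with a control mean at or below that limit. One limma 3.58.1 model (R 4.3.3) with 3 group means and no covariate was fitted to all genes. P-values were adjusted by Benjamini-Hochberg, and genes under 0.05 were called. The fit was tested on simulated data. Arrays correlated at 0.9635 to 0.9799 and no 2 were identical.

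The members and gene lists were chosen with earlier results of these data known. All members are named, with every array's value where the Sfpq-/- and control means differ by at least 0.5 and for others chosen after their values were seen; in the other lists, up to 4 genes of smallest adjusted p, or all that passed where at most 6 did. Where a list had 7 calls, the remaining 3 were added after their values were seen. Lists with no call are given by their range. Alternatives covered the probe set filter, gene summary, quantile normalization, array weights, replicate block, Xist covariate, the 2 groups alone and each array left out.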

Additional observations from a re-analysis of the deposited data

How the results depend on the processing

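The count of members called higher in Sfpq-/- against control cortex (10) stayed within 1.5 times under the alternatives run, with 2 exceptions. With probe sets above the 75th percentile it was 6 over 13346 genes (8.77% of all genes were higher, against 5.98%). Olig3, Mab21l2, Sox14 and Shox2 then had fewer than 3 probe sets, so they had no level and were not tested. Foxa1 was tested and not called, and Otx2 was added. Against Sfpq+/- the count fell from 12 to 7 in this setting (5.92% of all genes, against 4.58%). With array weights the count against control was 26 higher and 4 lower (38.9% and 29.2% of all genes). For Sfpq+/- against control it was 3 lower (2.49%), and for Sfpq-/- against Sfpq+/- 25 higher and 1 lower (23.9% and 18.8%). That setting gave Sfpq-/- 1 a weight of 30.1 and Sfpq-/- 3 one of 0.215 and called 11465 genes (68%), and it turned the context list counts from 10 higher and 9 lower to 42 and 38.

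Without 1 array the members called higher numbered 7 to 10 against control (3.22% to 8.76% of all genes) and 8 to 14 against Sfpq+/- (2.78% to 5.36%), and the context genes 6 to 12 higher and 8 to 10 lower. Without Sfpq-/- replicate 1 they were 7 members and 6 context genes higher. Counts of lower members stayed at 0 in all fits without 1 array, as did both counts for Sfpq+/-. Barhl2, Dbx1, Fezf1 and Mab21l1 were called in all 18 alternatives, Olig3 in 16 and Shox2 in 7. All of these fits use the contrast that helped to choose the members, so they show only how the calls depend on the processing. Keeping probe sets by their control mean, an alternative chosen after seeing the data, left 9 members called and no level for Olig3.

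The replicate block gave 11 members higher against control (7.73% of all genes) and 15 against Sfpq+/- (5.71%). Same-numbered arrays had correlations of deviations from -0.06 to 0.57, above 0.1 in 5 of 9 pairs, and 5 of 9 arrays correlated best with their own number. The pairs of replicate 3 arrays were all positive (0.57, 0.31 and 0.30). Pairs of a replicate 3 array with another number ran from -0.53 to 0.02. What the replicate 3 arrays shared was not tested. The labels do not say that numbers pair samples, so the main model had no pairing. Among the recomputed member differences 324 stayed within the spread between arrays, 18 moved further and 0 called ones reversed. Detection calls were not used here, so a level is not told from background, whether its probe sets are dim or above the limit.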
